A study of Oryza sativa with 8 samples.

Results

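The genes described here are 172 of the 55801 rice loci in an expression table of young seedling shoots, chosen by their annotation text: every locus annotated as a subtilisin, a papain-type or other cysteine protease or proteinase, a vacuolar processing enzyme or a senescence gene. They comprise 71 subtilases, 44 cysteine proteases, 12 cysteine protease inhibitors, which the same words bring in, 5 vacuolar processing enzymes and 40 senescence genes. RNA came from wild type seedlings of the cultivar Nipponbare, from the coleoptile at an age of 2 days and from the first leaf at 3 days, so tissue and age cannot be told apart. Seeds stood in sterile water at 37 °C for 24 h, and seedlings grew at 28 °C in continuous white light. For the last 1 h before harvest, seedlings either stayed in white light or were moved to simulated shade made with LEDs (in µE per square metre per second, 16 of red, 1.3 of blue and 48 of far-red light). Each of the 4 groups had 2 libraries. No label ties replicates to separate cultures, and p-values therefore cover the spread among these particular samples alone, which may be technical.

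Proteases of these families take proteins apart at different sites of the plant cell. Subtilases are serine proteases that are mostly secreted into the cell wall space, where they process and degrade extracellular proteins. Papain-type cysteine proteases and vacuolar processing enzymes, which are also cysteine proteases, act largely in the vacuole, and cystatins are the small proteins that inhibit the papain type. Leaf senescence is the ordered dismantling of an ageing leaf, in which chlorophyll and protein are broken down and their nitrogen is moved elsewhere, and the coleoptile is a sheath that protects the shoot during emergence and senesces early in seedling life. Shade light, poor in red and rich in far-red, is read by phytochromes and is known in other plants to hasten leaf senescence when it lasts for days.

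Levels are FPKM, fragments counted per length of transcript and per mapped library fragments, a unit that allows levels to be compared between genes. Libraries summed to 696059 to 808054 FPKM and had 26693 to 28127 loci above 0. Fragment totals are not given, and the step between low values placed relative depth between 0.827 and 1.37 times that of shaded coleoptile replicate 1. The white light coleoptile libraries stood apart: their replicates correlated at r = 0.914 across loci, with 3167 of 21014 tested loci over 2-fold apart, against r of 0.975 to 0.982 and 299 to 566 loci in the 3 other groups. WRKY and ZIM domain genes, known from stress and wounding, summed to 5332 and 2397 FPKM in the 2 white light coleoptile libraries, to 1283 and 1237 in the shaded ones and to between 1428 and 2252 in the first leaf libraries. Of the 78 tested genes of that list, 0 were called in either shade comparison, where 0.0428% (coleoptile) and 0% (first leaf) of all tested loci were. The median log2 change of the 78 genes was -0.39 in the coleoptile and 0.19 in the first leaf. At an unadjusted p under 0.05, 30 of them were lower and 2 higher in the shaded coleoptile, where 5.74% and 4.17% of all tested loci were. In the shaded leaf 0 were lower and 4 higher, where 2.47% and 3.01% of all loci were. Green leaf markers (chlorophyll-binding, photosystem and Rubisco small subunit genes) summed to between 21317 and 36124 FPKM in the coleoptile and between 48890 and 61338 in the first leaf. Of 43 tested, 8 were called higher in the leaf in white light and 4 in shade, where 5.92% and 5.67% of all tested loci were. Called lower were 0 in either light, against 5.03% and 4.63% of all loci. Both labelled tissues held transcripts of green tissue, the first leaf more. Glutelin and prolamin genes, the endosperm storage proteins, summed to between 1.07 and 2.61 FPKM per library, with 36 to 40 of 43 listed at 0. Alpha-amylase genes, expressed by the aleurone of the seed, summed to between 39.7 and 50.05 FPKM.

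Of the 172 genes, 87 averaged 1 FPKM or more across all 8 libraries and were tested, 46 were above 0 in some library but under that mean, and 39 were listed at 0 in every library. How many were expressed varied by class. Tested were 32 of 71 subtilases, 28 of 44 cysteine proteases, 7 of 12 inhibitors, 4 of 5 vacuolar processing enzymes and 16 of 40 senescence genes. Among the senescence genes, only 3 of 23 loci annotated as senescence-induced receptor-like kinases passed, and 11 of those 23 were listed at 0 throughout, whereas 9 of 13 loci annotated as leaf senescence related, all 3 senescence-associated loci and the single stay-green locus passed. Among the cysteine proteases, 11 of 26 papain-type loci passed against 13 of 14 OTU-like loci, a family of enzymes known to remove ubiquitin from proteins. The class also holds 2 loci annotated as cysteine protease ATG4, which both passed. A further 2, which passed too, are annotated as trypsin-like serine and cysteine proteases, a label that names both types.

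Transcript abundance was concentrated in a few loci. A cystatin, LOC_Os01g58890, held 11.5% of the summed mean FPKM of the 172 genes, a papain family protease, LOC_Os05g24550, held 10.7%, and a locus annotated as cysteine proteinase 1, LOC_Os02g27030, held 8.78%, so that 3 loci made up 31% of the total. LOC_Os02g27030 stood at 214 and 246 FPKM in white light coleoptiles, 282 and 208 in shaded coleoptiles, 318 and 295 in white light first leaves and 275 and 338 in shaded first leaves. Its white light coleoptile libraries lay below both white light leaf libraries, but it was not called between tissues in white light (log2 difference 0.42 ± 0.22, adjusted p = 0.303). The highest locus of the subtilase class, LOC_Os05g35740, had a mean of 109 FPKM and held 22.6% of its class. It is annotated only by a subtilisin N-terminal region and has no OsSub number, so the label alone does not make it a subtilase. The mean summed level of the 12 cystatins was above that of the 71 subtilases in each group, although in shaded first leaf replicate 1 the cystatins summed to 505 FPKM and the subtilases to 508. Their group means were 1138 ± 158 (SD, n = 2) and 1004 ± 117 FPKM in white light and shaded coleoptiles and 571 ± 15.2 and 548 ± 60.5 in white light and shaded first leaves. Subtilases summed to 463 ± 100.2, 499 ± 42.6, 483 ± 17.2 and 490.0 ± 26.2 FPKM in the same order of groups. These sums did not separate by group, whereas those of the cystatins were higher in every coleoptile library than in any leaf library. For vacuolar processing enzymes the order was the opposite, with 82.0 ± 5.998 and 72.1 ± 1.72 FPKM in the coleoptile and 162 ± 32.9 and 145 ± 11.6 in the first leaf, as the plot of summed levels by class shows. Most of that difference came from LOC_Os01g37910, with means of 17.3 and 12.1 FPKM in the coleoptile and 104 and 83.5 in the leaf. Of the 4 tested loci of this class, 2 were higher and 2 lower in the leaf in each light.

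**Figure D1:**
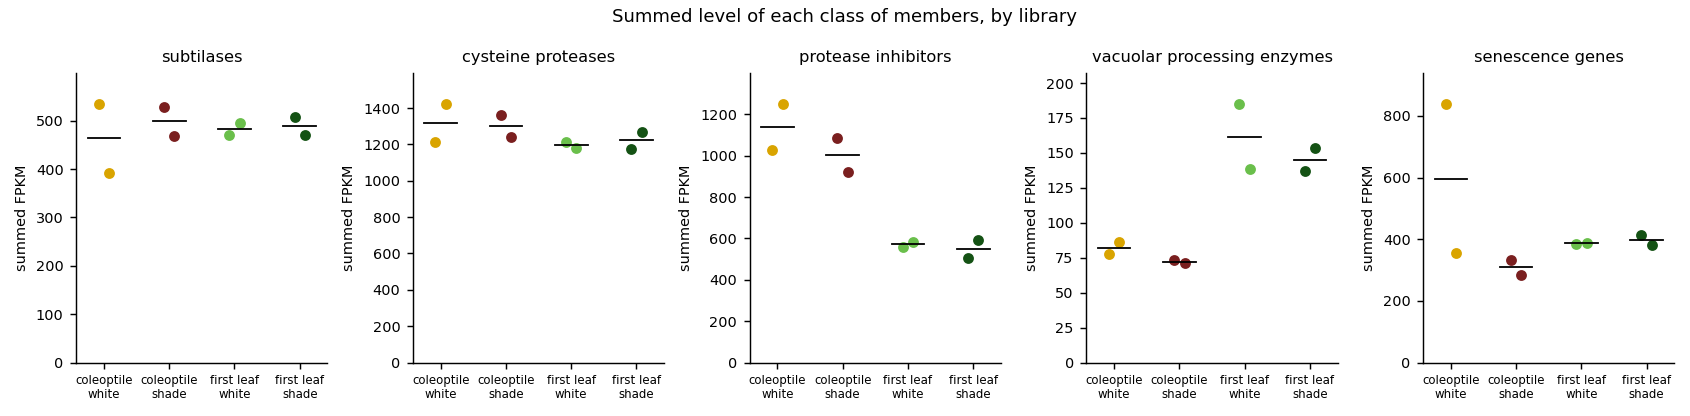
Summed FPKM of each class of genes on the vertical axis, by library, with a point for each of the 8 libraries and a line at the mean of the 2 libraries of a group. Inhibitors are higher in all 4 coleoptile libraries (at least 921 FPKM) than in any first leaf library (at most 591 FPKM), vacuolar processing enzymes are higher in all first leaf libraries, and the senescence genes are set apart by 1 white light coleoptile library at 838 FPKM.

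The first comparison asked how the first leaf differed from the coleoptile, separately in white light and in shade. In white light, 11 of the 87 tested genes (12.6%) were called, where 11% of all tested loci were. The leaf was higher in 5 and lower in 6, against 5.92% and 5.03% of all loci. In shade, 17 of 87 (19.5%) were called, where 10.3% of all loci were, with the leaf higher in 10 and lower in 7 (5.67% and 4.63% of all loci). Calls are limma tests on log2(FPKM + 1), adjusted over all 21014 tested loci, and a log2 difference on that scale understates the change of low genes. The log2 differences of the 2 comparisons share no library, but both tests take their spread from the same fit of all 8 libraries. Called in both were 10 genes, with 1 called in white light alone and 7 in shade alone. A tissue difference that depends on light is the difference of the shade responses, for which 0 of the 87 were called. The counts of calls with libraries left out, given next, come without the share of all tested loci called in the same fit. They therefore do not show whether a shift was particular to these genes. Calls in white light ran from 6 (without first leaf white light replicate 1) to 20 (without coleoptile white light replicate 1) when libraries were left out in turn. In shade they ran from 4 (without either shaded coleoptile library) to 28 (without either white light coleoptile library), with 7 and 5 without shaded leaf replicate 1 or 2 and 10 without either white light leaf library. LOC_Os03g54130, LOC_Os01g37910 and OsSub12 were called in both lights under all 16 alternatives, as was LOC_Os05g51570 in shade, and the other calls were lost under at least 1, except OsSub8 in white light, called in all 15 it could be fitted in. Of the 87 genes, 69 (79.3%) had the same sign in both lights with r = 0.836 across genes, which are not independent replicates, where all tested loci gave 72.5% and r = 0.748. In these bulk samples, fewer cells of a type and less RNA per cell cannot be told apart. By class, the calls in white light and in shade were 2 and 7 of 32 subtilases, 4 and 4 of 28 cysteine proteases, 4 and 4 of 7 inhibitors, 1 and 2 of 4 vacuolar processing enzymes and 0 and 0 of 16 senescence genes.

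**Figure D2:**
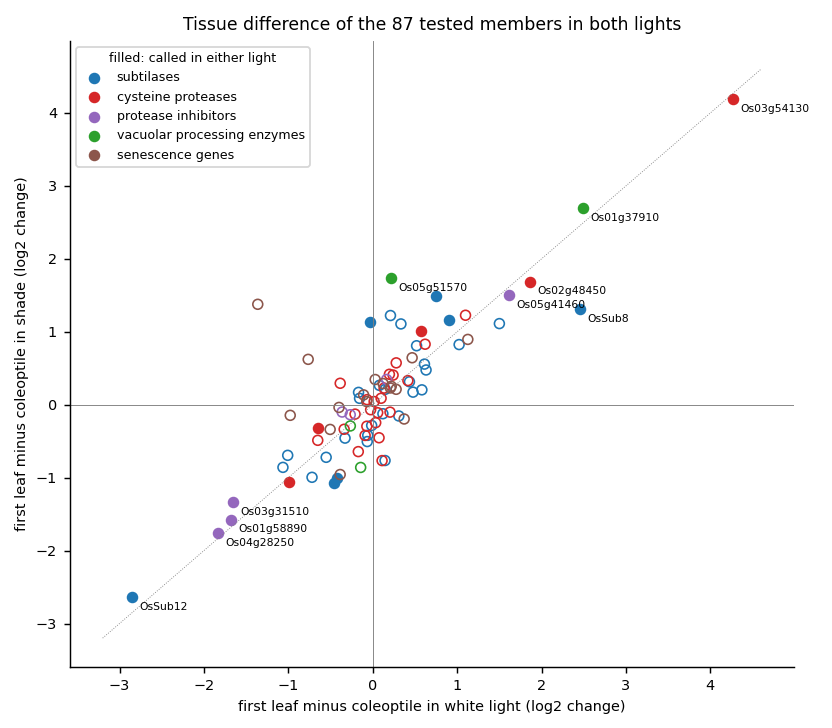
Log2 difference between first leaf and coleoptile in white light (horizontal axis) and in shade (vertical axis) for the 87 tested genes, coloured by class, with filled points for the 18 called in either light and a dotted line of equal values. LOC_Os03g54130 (4.27 and 4.19) and OsSub12 (-2.85 and -2.64) mark the ends, and most filled points lie near the line.

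Cysteine proteases included the largest tissue difference of the 87 genes. LOC_Os03g54130, annotated as a cysteine protease 1 precursor, stood at 0.226 and 0.0628 FPKM in white light coleoptiles, 0.595 and 0.124 in shaded coleoptiles, 33.2 and 13.3 in white light first leaves and 23.2 and 23.6 in shaded first leaves. It was near 0 in all 4 coleoptile libraries and at 13.3 FPKM or more in all 4 leaf libraries. It passed the filter, a mean of 1 FPKM, only through the leaf, where it is high. The log2 difference was 4.27 ± 0.40 (SE) in white light (adjusted p = 0.00139) and 4.19 ± 0.40 in shade (adjusted p = 0.00146). Xylem cysteine proteinases are known from the water-conducting tissue, in which cells die as they mature. LOC_Os02g48450, annotated as xylem cysteine proteinase 2, stood at 1.46 and 1.13 FPKM in white light coleoptiles, 2.19 and 2.10 in shaded coleoptiles, 9.28 and 5.74 in white light first leaves and 8.97 and 9.32 in shaded first leaves. It was higher in the leaf in both lights, by 1.86 ± 0.25 (adjusted p = 0.00456) and 1.69 ± 0.25 (adjusted p = 0.00698) on the log2 scale. The other 2 abundant loci with that annotation behaved otherwise: LOC_Os05g01810 lay between 67.6 and 105 FPKM and LOC_Os01g73980 between 53.6 and 76.9 in the 8 libraries, and neither was called in any comparison. The abundant papain family locus LOC_Os05g24550 went the other way, at 363 and 535 FPKM in white light coleoptiles, 449 and 442 in shaded coleoptiles, 222 and 219 in white light first leaves and 205 and 221 in shaded first leaves. Its leaf libraries all lay below its coleoptile libraries, with a log2 difference of -0.995 ± 0.22 in white light (adjusted p = 0.0315) and -1.06 ± 0.22 in shade (adjusted p = 0.0263). An OTU-like locus, LOC_Os02g06890, was called lower in the leaf in white light alone (-0.65 ± 0.16, adjusted p = 0.0418), with -0.31 in shade (adjusted p = 0.283). It went from 88.9 and 73.7 FPKM in white light coleoptiles and 58.7 and 55.3 in shaded ones to between 44.6 and 52.6 in the leaf. LOC_Os04g24600, annotated as cysteine proteinase 1 and named to complete the calls, was called higher in the leaf in shade alone (1.02 ± 0.26, adjusted p = 0.0495), with 0.57 in white light (adjusted p = 0.227).

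Vacuolar processing enzymes cleave precursors of vacuolar proteins after asparagine and take part in programmed cell death in plants. The most abundant in the leaf, LOC_Os01g37910, stood at 15.1 and 19.5 FPKM in white light coleoptiles, 12.1 and 12.1 in shaded coleoptiles, 127 and 80.4 in white light first leaves and 80.8 and 86.1 in shaded first leaves. Each leaf library held at least 80.4 FPKM and each coleoptile library at most 19.5, a log2 difference of 2.49 ± 0.24 in white light (adjusted p = 0.00153) and 2.69 ± 0.24 in shade (adjusted p = 0.00109). LOC_Os05g51570 stood at 12.8 and 10.3 FPKM in white light coleoptiles, 5.77 and 4.77 in shaded coleoptiles, 14.9 and 12.3 in white light first leaves and 19.4 and 20.3 in shaded first leaves. The tissues overlapped in white light (0.22 ± 0.19, adjusted p = 0.556) and separated in shade, where the leaf was higher by 1.74 ± 0.19 on the log2 scale (adjusted p = 0.00259). Whether the tissue difference itself depended on light is the same contrast as the difference of the shade responses, which was not called for this gene. LOC_Os04g45470 stood at 41.0 and 51.1 FPKM in white light coleoptiles, 46.6 and 43.5 in shaded coleoptiles, 35.8 and 40.1 in white light first leaves and 31.9 and 42.0 in shaded first leaves. Its leaf libraries lay just below its coleoptile libraries in each light, with no call (-0.27 ± 0.19, adjusted p = 0.471 in white light and -0.29 ± 0.19, adjusted p = 0.429 in shade). LOC_Os02g43010 stood at 8.85 and 5.40 FPKM in white light coleoptiles, 8.92 and 10.6 in shaded coleoptiles, 6.81 and 5.62 in white light first leaves and 4.88 and 4.92 in shaded first leaves. It was lower in the shaded leaf than in the shaded coleoptile by a difference that missed the threshold (-0.86 ± 0.25, adjusted p = 0.0731). The remaining locus, LOC_Os06g01610, was listed at 0 in every library.

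Cystatins were the class with the highest share of calls, 4 of 7 in each light: LOC_Os04g28250, LOC_Os01g58890 and LOC_Os03g31510 were lower and LOC_Os05g41460 higher in the leaf. LOC_Os01g58890, the most abundant of the 172 genes, stood at 516 and 633 FPKM in white light coleoptiles, 523 and 482 in shaded coleoptiles, 177 and 178 in white light first leaves and 139 and 203 in shaded first leaves. Its lowest coleoptile library, at 482 FPKM, was well above its highest leaf library, at 203. The log2 differences were -1.68 ± 0.23 (adjusted p = 0.00545) in white light and -1.58 ± 0.23 (adjusted p = 0.00766) in shade. LOC_Os04g28250 stood at 148 and 244 FPKM in white light coleoptiles, 222 and 156 in shaded coleoptiles, 46.6 and 59.3 in white light first leaves and 61.8 and 47.4 in shaded first leaves. Its tissues did not overlap, and the leaf was lower by 1.84 ± 0.30 in white light (adjusted p = 0.0102) and 1.76 ± 0.30 in shade (adjusted p = 0.0125) on the log2 scale. LOC_Os03g31510, annotated as cystatin 8, stood at 130.2 and 122 FPKM in white light coleoptiles, 109.5 and 87.3 in shaded coleoptiles, 31.3 and 49.2 in white light first leaves and 38.8 and 37.3 in shaded first leaves. It did not overlap between tissues either, with log2 differences of -1.66 ± 0.23 (adjusted p = 0.00582) and -1.34 ± 0.23 (adjusted p = 0.0139). LOC_Os05g41460 had the opposite order, at 32.7 and 22.7 FPKM in white light coleoptiles, 23.7 and 20.2 in shaded coleoptiles, 96.1 and 75.8 in white light first leaves and 54.0 and 75.1 in shaded first leaves. All of its leaf libraries exceeded all of its coleoptile libraries, by 1.61 ± 0.25 in white light (adjusted p = 0.00825) and 1.5 ± 0.25 in shade (adjusted p = 0.0116) on the log2 scale. The 3 remaining tested cystatins were called in no comparison, LOC_Os05g33880 at 117 to 168 FPKM, LOC_Os01g16430 at 53.7 to 71.1 and LOC_Os01g68670 at 3.01 to 6.60.

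Among subtilases, the tissues differed most at OsSub12 (LOC_Os02g10520), a transcript of the coleoptile. It stood at 21.1 and 20.5 FPKM in white light coleoptiles, 26.3 and 31.6 in shaded coleoptiles, 1.91 and 2.15 in white light first leaves and 2.96 and 4.77 in shaded first leaves. No leaf library reached 5 FPKM and no coleoptile library was under 20, with log2 differences of -2.85 ± 0.22 in white light (adjusted p = 0.000711) and -2.64 ± 0.22 in shade (adjusted p = 0.000891). OsSub8 (LOC_Os01g58280) was the reverse, at 0.205 and 0.304 FPKM in white light coleoptiles, 0.392 and 0.452 in shaded coleoptiles, 6.60 and 5.21 in white light first leaves and 1.69 and 3.60 in shaded first leaves. It was under 0.5 FPKM in every coleoptile library and passed the filter, a mean of 1 FPKM, only through the leaf. The leaf was higher by 2.45 ± 0.30 in white light (adjusted p = 0.00339) and 1.31 ± 0.30 in shade (adjusted p = 0.035). A further 5 subtilases were called in shade alone. OsSub25 (LOC_Os03g02750, 1.49 ± 0.37, adjusted p = 0.0481), OsSub45 (LOC_Os04g48416, 1.16 ± 0.26, adjusted p = 0.0315) and OsSub9 (LOC_Os01g58290, 1.14 ± 0.20, adjusted p = 0.0133) were higher in the shaded leaf. OsSub42 (LOC_Os04g45960, -1.07 ± 0.23, adjusted p = 0.0274) and OsSub22 (LOC_Os02g53860, -1.005 ± 0.25, adjusted p = 0.0482) were lower in it. OsSub25 stood at 14.1 and 5.64 FPKM in white light coleoptiles, 5.28 and 5.74 in shaded coleoptiles, 14.8 and 16.9 in white light first leaves and 20.5 and 14.5 in shaded first leaves. OsSub45 stood at 23.0 and 15.7 FPKM in white light coleoptiles, 18.5 and 15.5 in shaded coleoptiles, 33.4 and 39.9 in white light first leaves and 47.3 and 32.3 in shaded first leaves. In the shaded libraries the tissues did not overlap at either gene, while OsSub25 replicates of the white light coleoptile were over 2-fold apart. In white light these 5 had log2 differences of 0.75, 0.90, -0.03, -0.46 and -0.43 in the same order, with adjusted p from 0.0697 upwards.

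Subtilase genes lie in runs along the rice chromosomes, and neighbours differed in level. By closeness of locus numbers, 5 runs of at least 4 subtilase loci were found, 1 on chromosome 1, 2 on chromosome 2 and 2 on chromosome 4. They held 25 loci, of which 8 passed the filter, and other genes may lie between the loci of a run. In the run of 4 on chromosome 1, OsSub6 (LOC_Os01g58240) lay between 0.562 and 2.10 FPKM in the 8 libraries and OsSub7 was listed at 0 in every one. OsSub8 was the leaf transcript above. OsSub9 stood at 5.38 and 5.47 FPKM in white light coleoptiles, 3.81 and 3.02 in shaded coleoptiles, 5.86 and 4.74 in white light first leaves and 8.24 and 9.11 in shaded first leaves. In a run of 4 on chromosome 4, the outer loci OsSub36 and OsSub39 were listed at 0 throughout and the inner 2 were expressed. OsSub37 (LOC_Os04g03796) stood at 15.8 and 28.3 FPKM in white light coleoptiles, 17.5 and 20.9 in shaded coleoptiles, 9.81 and 10.3 in white light first leaves and 10.8 and 12.1 in shaded first leaves. OsSub38 (LOC_Os04g03810) stood at 34.0 and 3.47 FPKM in white light coleoptiles, 7.40 and 10.002 in shaded coleoptiles, 36.7 and 32.2 in white light first leaves and 30.2 and 12.8 in shaded first leaves. OsSub37 was lower in the leaf than in the coleoptile without overlap in either light (log2 -1.01 ± 0.27, adjusted p = 0.0545 in white light), while OsSub38 varied as much within the white light coleoptile as between tissues. Reads of similar neighbouring copies could have been split between them in the authors' quantification, so the level of each is uncertain. The 2 abundant receptor-like kinase loci LOC_Os11g01200 and LOC_Os12g01200, on different chromosomes by their identifiers, lay between 11.0 and 20.4 FPKM in all libraries. If they are similar copies, their reads could have been split as well, which was not tested.

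**Figure D3:**
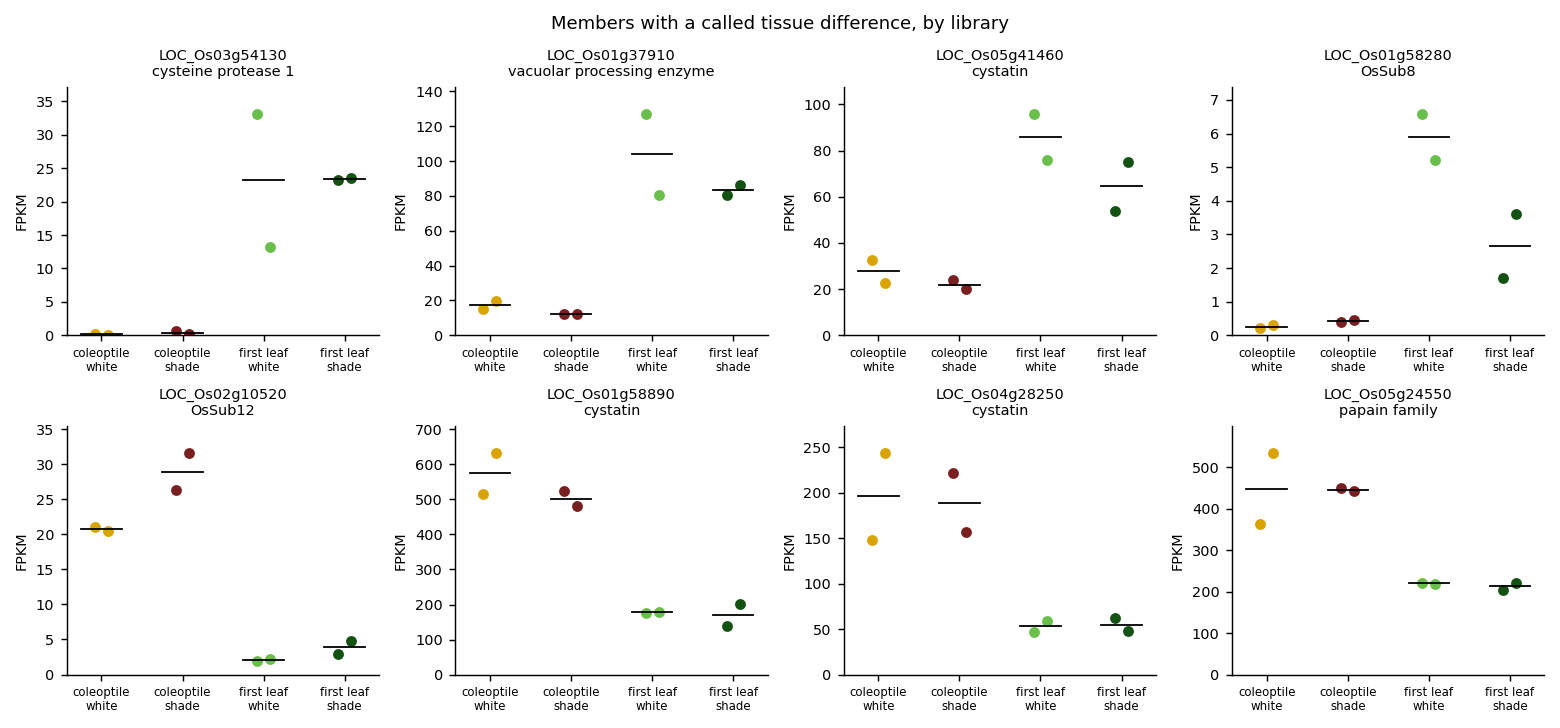
FPKM on the vertical axis by library for 8 genes called between tissues, with a point for each library and a line at the mean of the 2 libraries of a group. In the upper row all leaf libraries are above all coleoptile libraries, as for LOC_Os01g37910 (at least 80.4 against at most 19.5 FPKM), and in the lower row all leaf libraries are below, as for OsSub12 (at most 4.77 against at least 20.5 FPKM).

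Senescence genes gave no call between tissues, 0 of 16 in either light. At an unadjusted p under 0.05 there were 3 of 16 in white light (18.8%, against 25% of all tested loci) and 2 in shade (12.5% against 24.3%), so neither share was above that of all loci. The leaf senescence related locus LOC_Os03g60340 stood at 58.4 and 21.5 FPKM in white light coleoptiles, 70.5 and 48.9 in shaded coleoptiles, 77.3 and 80.1 in white light first leaves and 123 and 98.2 in shaded first leaves. The leaf libraries were above those of the coleoptile in each light, but the difference did not pass (1.13 ± 0.42, adjusted p = 0.151 in white light and 0.90 ± 0.42, adjusted p = 0.255 in shade). Its neighbour LOC_Os03g60350 lay between 32.1 and 55.3 FPKM and LOC_Os05g28630 between 33.3 and 50.9. Stay-green proteins act in the first steps of chlorophyll breakdown. The stay-green locus LOC_Os09g36200 stood at 41.3 and 23.4 FPKM in white light coleoptiles, 20.8 and 14.03 in shaded coleoptiles, 18.7 and 12.6 in white light first leaves and 15.2 and 15.6 in shaded first leaves. It was highest in the white light coleoptile and between 12.6 and 20.8 FPKM in the 3 other groups, with a tissue difference of -0.98 ± 0.32 in white light (adjusted p = 0.106).

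The second comparison asked which of these genes differed after 1 h of shade. In the coleoptile 0 of 87 were called, where 0.0428% of all tested loci were, and 11 had an unadjusted p under 0.05, 12.6% against 9.91% of all loci. Of these, 4 were higher and 7 lower in shade, directions that held 4.17% and 5.74% of all loci. The shade and white light libraries did not overlap for 15 genes that were higher and 19 that were lower in shade, which is 17.2% and 21.8% of the 87 against 17.3% and 15.3% of all tested loci. The median log2 change of the 87 genes and of all loci was 0.02.

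The widest difference was at LOC_Os03g13840, annotated as senescence-associated. It stood at 478 and 98.8 FPKM in white light coleoptiles, 15.5 and 15.3 in shaded coleoptiles, 79.3 and 89.1 in white light first leaves and 37.4 and 46.3 in shaded first leaves. White light libraries were above shaded ones in both tissues, but within the white light coleoptile replicate 1 lay far above replicate 2. The log2 change of -3.74 ± 0.62 did not pass (adjusted p = 0.128), nor did that of the first leaf (-0.998 ± 0.62, adjusted p = 1). LOC_Os06g50330, with the same annotation, stood at 74.9 and 28.1 FPKM in white light coleoptiles, 13.7 and 11.1 in shaded coleoptiles, 29.0 and 24.5 in white light first leaves and 21.2 and 18.0 in shaded first leaves. Its lights had the same order in both tissues, with -1.82 ± 0.40 in the coleoptile (adjusted p = 0.165) and -0.43 ± 0.40 in the first leaf (adjusted p = 1). The third, LOC_Os01g52480, had the reverse order at 1.39 and 1.66 FPKM in white light coleoptiles, 2.46 and 2.49 in shaded coleoptiles, 2.72 and 2.26 in white light first leaves and 5.02 and 3.89 in shaded first leaves. It was higher in shade without overlap in both tissues (0.46 ± 0.21, adjusted p = 0.55 and 0.64 ± 0.21, adjusted p = 0.707). The library with the highest LOC_Os03g13840 and LOC_Os06g50330, white light coleoptile replicate 1, was also that with the highest WRKY and ZIM domain sum (5332 FPKM), and its part in the result was not tested. With replicate 1 left out, LOC_Os03g13840 was called lower in shade (log2 -2.61, adjusted p = 0.00502) and OsSub30 higher (1.30, adjusted p = 0.0437), where 1.1% of all loci were called. With replicate 2 left out, 6 genes were called, all lower in shade, where 8.28% of all loci were called. They were LOC_Os03g13840 (-4.87, adjusted p = 0.000212), LOC_Os06g50330 (-2.51, adjusted p = 0.00107) and the vacuolar processing enzyme LOC_Os05g51570 (-1.15, adjusted p = 0.0169), with OsSub25 (-1.22, adjusted p = 0.0229), OsSub38 (-1.87, adjusted p = 0.0434) and the stay-green locus (-1.22, adjusted p = 0.0491). In these fits the lone white light library is assumed to vary like the other groups. For OsSub38 the replicate 2 left out, at 3.47 FPKM, lay below both shaded libraries (7.40 and 10.002), the opposite direction. For OsSub25 it stood at 5.64 FPKM, between the shaded libraries (5.28 and 5.74). The lower level of these 2 genes in shade thus rests on replicate 1.

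Of the remaining genes that were lower in the shaded coleoptile without overlap, LOC_Os05g51570 had a log2 change of -0.997 ± 0.19 (adjusted p = 0.14). Its values, 12.8 and 10.3 FPKM in white light and 5.77 and 4.77 in shade, lay close within each group. The stay-green locus had -0.83 ± 0.32 (adjusted p = 0.436) and OsSub14 (LOC_Os02g17000), a low subtilase at 2.157 and 0.530 FPKM in white light and 0.0304 and 0.105 in shade, -1.04 ± 0.48 (adjusted p = 0.547). The 7 tested cystatins all had a negative log2 change in the shaded coleoptile, as did 47% of all loci. Their changes ran from -0.36 to -0.02, and 0 had an unadjusted p under 0.05, against 9.91% of all loci. The groups did not overlap at 2 of them (28.6%), lower in shade, where 15.3% of all loci were lower without overlap.

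Of genes without overlap, subtilases made up 4 of the 5 with the highest log2 change in the shaded coleoptile. OsSub30 (LOC_Os03g40830) stood at 28.6 and 18.9 FPKM in white light coleoptiles, 51.1 and 45.0 in shaded coleoptiles, 25.8 and 32.8 in white light first leaves and 41.8 and 44.2 in shaded first leaves. Shade libraries exceeded white light libraries in both tissues, by 1.01 ± 0.23 in the coleoptile (adjusted p = 0.166) and 0.55 ± 0.23 in the first leaf (adjusted p = 0.892), neither called. OsSub47 (LOC_Os05g36010) had the same order, at 27.1 and 17.0 FPKM in white light coleoptiles, 49.0 and 37.4 in shaded coleoptiles, 10.6 and 15.1 in white light first leaves and 19.9 and 22.1 in shaded first leaves. Its log2 changes were 0.96 ± 0.27 (adjusted p = 0.256) and 0.69 ± 0.27 (adjusted p = 0.85). OsSub22 stood at 36.6 and 23.0 FPKM in white light coleoptiles, 54.5 and 42.0 in shaded coleoptiles, 19.1 and 23.8 in white light first leaves and 23.1 and 23.6 in shaded first leaves. OsSub42 stood at 2.06 and 1.39 FPKM in white light coleoptiles, 3.09 and 3.59 in shaded coleoptiles, 0.934 and 0.995 in white light first leaves and 1.0004 and 1.13 in shaded first leaves. Both were higher in the shaded coleoptile without overlap, and in the leaf the lights lay close together (0.70 ± 0.25, adjusted p = 0.387 and 0.68 ± 0.23, adjusted p = 0.346, both in the coleoptile). The fifth gene, LOC_Os06g12870, annotated as leaf senescence related, was at 5.99 and 3.34 FPKM in white light and 8.05 and 6.90 in shade (0.62 ± 0.28, adjusted p = 0.531). Over the 32 subtilases, 19 had a positive and 13 a negative log2 change with a median of 0.19, where 52.9% of all loci were positive.

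**Figure D4:**
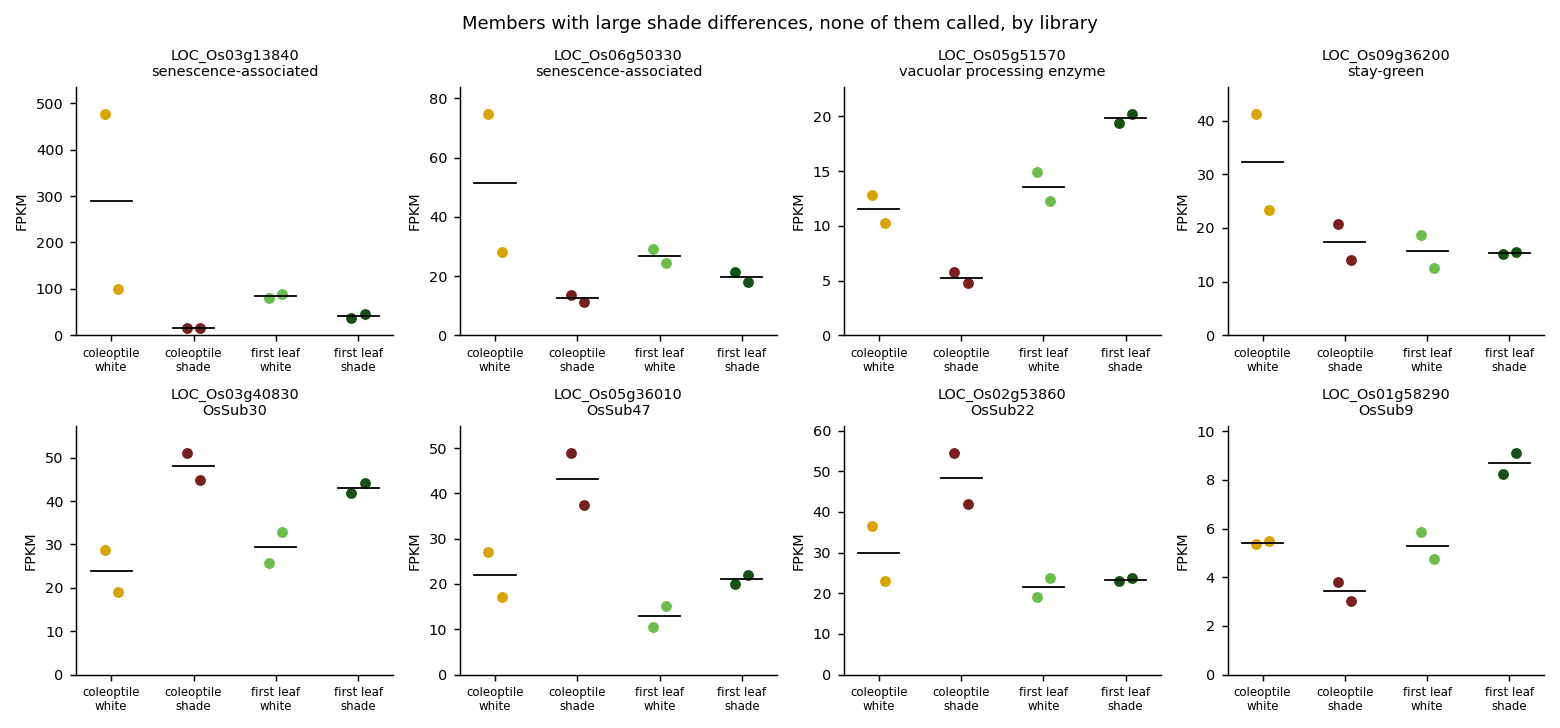
FPKM on the vertical axis by library for 8 genes with large shade differences that did not pass the test, with a point for each library and a line at the mean of the 2 libraries of a group. In LOC_Os03g13840 the white light coleoptile libraries are at 478 and 98.8 FPKM, far from each other and above the shaded ones at 15.5 and 15.3, while LOC_Os05g51570 and OsSub9 have opposite orders of the lights in the 2 tissues.

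In the first leaf, 0 of 87 were called after shade, where 0% of all loci were, and 10 had an unadjusted p under 0.05, 11.5% against 5.48% of all loci. Of these, 7 were higher and 3 lower in shade, against 3.01% and 2.47% of all loci. Libraries did not overlap for 19 genes higher and 18 lower in shade, which is 21.8% and 20.7% against 21.3% and 18.3% of all loci. The median log2 change was 0.07, against 0.01 over all loci. Highest among the genes without overlap were OsSub47, given above, OsSub12 (0.66 ± 0.22, adjusted p = 0.72), LOC_Os01g52480, OsSub9 (0.62 ± 0.20, adjusted p = 0.666) and OsSub3 (LOC_Os01g52750, 0.62 ± 0.36, adjusted p = 1). OsSub3 was at 17.5 and 17.0 FPKM in white light and 20.7 and 35.1 in shade. Lowest, after LOC_Os03g13840, was OsSub8, at 6.60 and 5.21 FPKM in white light and 1.69 and 3.60 in shade (-0.96 ± 0.30, adjusted p = 0.655). Then came OsSub59 (LOC_Os09g36110, -0.78 ± 0.34, adjusted p = 0.933), OsSub38 (-0.77 ± 0.86, adjusted p = 1) and the abundant LOC_Os05g35740 (-0.44 ± 0.18, adjusted p = 0.884). LOC_Os05g35740 was at 132 and 121 FPKM in white light leaves and 89.7 and 95.2 in shaded ones, against 113 and 119 and 116 and 87.5 in the coleoptile. All 9 tested leaf senescence related loci had a positive log2 change in the first leaf, from 0.05 to 0.53 with a median of 0.12, where 51% of all loci were positive. Of these 9, 1 had an unadjusted p under 0.05, and in the coleoptile 6 of them were positive and 3 negative.

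Whether the shade response differed between tissues was tested as the difference of the 2 log2 changes, first leaf minus coleoptile. Of the 87 genes, 0 were called, where 0.019% of all loci were, and 6 had an unadjusted p under 0.05, 6.9% against 5.58%. LOC_Os05g51570 had the smallest p of the 87, with a shade change of -0.997 in the coleoptile and 0.52 in the first leaf, and its difference of 1.52 ± 0.27 did not pass after adjustment (adjusted p = 0.292). OsSub9 had -0.55 in the coleoptile and 0.62 in the leaf, a difference of 1.17 ± 0.28 (adjusted p = 0.491). In both genes each tissue's lights were without overlap and in opposite order. LOC_Os03g13840 had a difference of 2.74 ± 0.87 (adjusted p = 0.707), with both tissues lower in shade. With white light coleoptile replicate 2 left out, 3 differences were called where 4.22% of all loci were. They were those of LOC_Os03g13840 (3.87, adjusted p = 0.00196), LOC_Os06g50330 (2.08, adjusted p = 0.0101) and LOC_Os05g51570 (1.67, adjusted p = 0.0182). With replicate 1 left out 0 were, against 0.247% of all loci. The shade comparisons of the 2 tissues share no library, and 51 of 87 genes (58.6%) had the same sign in both with r = 0.441 across genes, where all loci gave 59.1% and r = 0.177.

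The split between the white light coleoptile replicates held a larger share of the subtilases than of the other classes. On the log2(FPKM + 1) scale, 16 of the 87 genes were over 2-fold higher in replicate 1 than in replicate 2 and 0 the reverse, where 11.8% of all tested loci were over 2-fold higher in replicate 1 and 3.29% the reverse. They were 12 of 32 subtilases (37.5%), 3 of 16 senescence genes and 1 of 28 cysteine proteases. Between the shaded coleoptile replicates 0 of the 87 were that far apart. OsSub38 stood at 34.0 against 3.47 FPKM, OsSub31 (LOC_Os03g55350) at 37.2 against 5.86 and OsSub11 (LOC_Os01g64860) at 16.8 against 3.59 in replicates 1 and 2. For 9 of the 12 subtilases replicate 2 lay below both shaded coleoptile libraries, and for 11 replicate 1 lay above both, with both true for 8. Over the 8 libraries, 11 of 32 subtilases had their lowest value in white light coleoptile replicate 2.

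**Figure D5:**
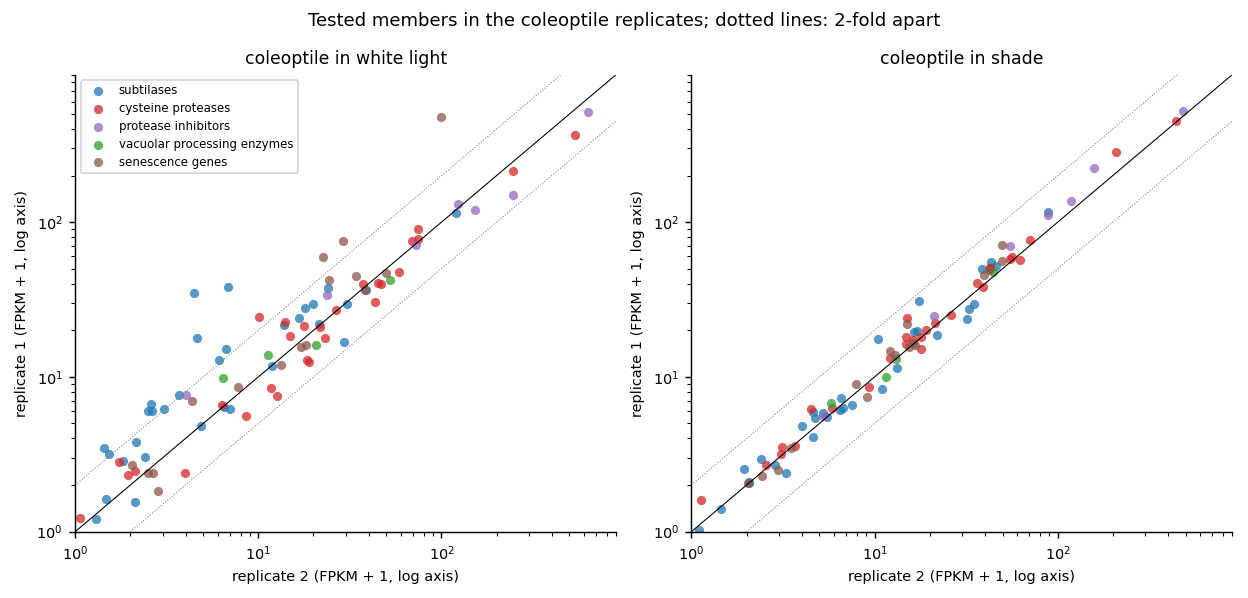
FPKM + 1 on log axes of the 87 tested genes in replicate 2 (horizontal) and replicate 1 (vertical) of the white light coleoptile (left) and the shaded coleoptile (right), coloured by class, with a line of equal values and dotted lines at 2-fold. In white light 16 points lie above the upper dotted line, 12 of them subtilases, and in shade none do.

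Other genes of protein breakdown were counted beside these classes. In the shade comparisons and their difference, 0 genes of any of the 9 lists were called, while 12, 10 and 7 of their 196 tested loci had an unadjusted p under 0.05 in the coleoptile, the first leaf and the difference. These are 6.12%, 5.1% and 3.57%, each below the 9.91%, 5.48% and 5.58% of all loci. Proteasome subunits (35 tested), autophagy genes (12), plastid proteases of the FtsH, Clp and related types (40) and metalloproteases (3) also gave 0 calls between tissues, with 0, 3, 0 and 0 genes in that order at an unadjusted p under 0.05 in white light, where 25% of all loci were, and 1, 1, 2 and 1 in shade, where 24.3% were. Over all tested loci, 11% were called between tissues in white light (5.92% higher and 5.03% lower in the leaf). In shade 10.3% were (5.67% and 4.63%). Aspartic proteases had 6 of 48 called in white light (5 higher, 1 lower in the leaf) and 4 in shade (3 and 1). Serine carboxypeptidases had 11 of 36 in each light (4 higher and 7 lower), and metacaspase-type ICE-like proteases 1 of 7 and 2 of 7, all higher in the leaf. Oryzains, papain-type cysteine proteases of rice that the annotation words did not bring in, had 2 of 4 called lower in the leaf in each light. Oryzain beta (LOC_Os04g57440) stood at 319 and 344 FPKM in white light coleoptiles, 399.9 and 338 in shaded coleoptiles, 74.3 and 73.3 in white light first leaves and 106 and 96.7 in shaded first leaves. All leaf libraries were lower, with log2 differences of -2.15 ± 0.17 (adjusted p = 0.000711) and -1.85 ± 0.17 (adjusted p = 0.00127). Inhibitors outside the cystatins had 5 of 11 called lower in white light and 3 of 11 in shade. The Bowman-Birk trypsin inhibitor BBTI5 (LOC_Os01g03360) stood at 1543 and 3623 FPKM in white light coleoptiles, 3329 and 2549.8 in shaded coleoptiles, 6.87 and 19.5 in white light first leaves and 15.2 and 21.5 in shaded first leaves. Its coleoptile libraries were all at 1543 FPKM or more and its leaf libraries at 21.5 or less, a log2 difference of -7.54 ± 0.53 in white light (adjusted p = 0.000434), and BBTI4 (LOC_Os01g03340) differed by -5.87 ± 0.44 (adjusted p = 0.000588). Of single loci tied to chlorophyll breakdown and ageing, pheophorbide a oxygenase (LOC_Os03g05310) and the short chain dehydrogenase LOC_Os01g12710 were called in no comparison. The no apical meristem protein LOC_Os03g21060, of the NAC family of transcription factors, was lower in the leaf in white light (-1.35 ± 0.30, adjusted p = 0.0314) and in shade (-1.52 ± 0.30, adjusted p = 0.0224).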

How the data were processed

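The authors deposited 1 table of FPKM values with an annotation text for each locus. Per the labels, sequencing gave paired reads of 150 bp. Tools named in the submitters' processing notes are TopHat2 2.0.14, Bowtie2 2.2.3, Trim Galore 0.3.7 and Cufflinks, Cuffnorm and Cuffdiff 2.2.1, and the genome build is not given in the sources used here. Chromosome numbers come from the locus identifiers. Counts were not analysed here, so no count model was used. Fragment totals are unknown, and an exact 0 may be a failed estimate. Values were tested as log2(FPKM + 1) with limma 3.58.1 in R 4.3.3 (empirical Bayes with trend) on 21014 loci that averaged 1 FPKM or more, all 4 groups in 1 fit with 4 residual and 3.26 prior degrees of freedom. Benjamini-Hochberg adjustment ran over all these loci, and a call is an adjusted p under 0.05. The code was tested on simulated data. Errors of log2 values are limma's standard errors.

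The members, classes and lists were chosen with earlier results of these data known. Named genes are, per shade comparison, the 5 highest and 5 lowest log2 changes without overlap, per tissue comparison up to 8 called each way, the 4 most abundant of each class, all tested cystatins, vacuolar processing enzymes and the stay-green locus, and in each comparison list the most changed called loci, of which the text gives those nearest to the cysteine proteases and inhibitors. OsSub6, OsSub7, OsSub11, OsSub31, OsSub36, OsSub37, OsSub39, LOC_Os04g24600, LOC_Os11g01200 and LOC_Os12g01200 were named after their values were seen. A keyword list of seed storage genes holds mostly lipid transfer protein family loci, so glutelins and prolamins by name were added. Of its 212 loci 90 were tested, with 21 called between tissues in white light, 29 in shade and 0 after shade. Over all tested loci, 11% were called between tissues in white light and 10.3% in shade. After shade 0.0428% were called in the coleoptile and 0% in the first leaf. Alternatives were another pseudocount, other filters, other scalings, a replicate block, the compared groups alone and each library left out.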

Additional observations from a re-analysis of the deposited data

How the results depend on the processing

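Among the results of single named genes, 0 reversed under the alternatives run. Genes named for the shade comparisons were picked for libraries that did not overlap, so leaving out 1 library could not reverse them. The coleoptile shade change of OsSub38 was not among these results. Its white light coleoptile replicates (34.0 and 3.47 FPKM) lay on opposite sides of the shaded ones (7.40 and 10.002). Of the alternative values of single named genes, 630 kept their side of the threshold, 91 lost the call and 6 gained it. The 630 include genes named for the shade comparisons, which were not called to begin with and so had no call to lose. All 91 lost calls were in the tissue comparisons. Without shaded coleoptile replicate 1, 11 of the named tissue calls in shade were lost and 4 kept, as without replicate 2. First leaf shade gave 0 calls under each alternative. In the coleoptile after shade, the count of 0 became 2 with no filter on low values, both leaf senescence related loci under 1 FPKM, and ran from 0 to 6 when each library was left out in turn. The difference of the shade responses went from 0 to 1 with no filter and ran from 0 to 3 with libraries left out. Between tissues in white light the 11 calls became 5 when only the groups compared were fitted, with the same direction and fewer samples behind the spread, and ran from 6 (without first leaf white light replicate 1) to 20 (without coleoptile white light replicate 1) with libraries left out. In shade the 17 calls became 28 with only the groups compared and ran from 4 to 28, with 28 without either white light coleoptile library, 4 without either shaded coleoptile library, 7 and 5 without shaded first leaf replicate 1 or 2, and 10 without either white light leaf library. The cause of these shifts was not tested. For the tissue comparisons, the share of all tested loci called under each alternative is not given here. Whether the shifts were particular to these genes is therefore not known. LOC_Os03g54130, LOC_Os01g37910 and OsSub12 were called in both tissue comparisons under all 16 alternatives. Deviations of same-numbered libraries correlated at -0.148 to 0.0854 across loci. No shared shift by replicate number was seen, but this cannot exclude that same-numbered samples were handled together. With the replicate number as a block the tissue calls were 12 in white light and 14 in shade. Swapping the 2 numbers of the shaded coleoptile, chosen after seeing the data, gave 10 and 15 calls. Fragment totals are unknown, which limits what can be said of genes near 0, and with 2 libraries a group 1 library can decide a call.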

Other observations

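Of the 46 genes that were above 0 in some library but under the mean of 1 FPKM, 7 reached 1 FPKM in at least 1 library. The leaf senescence related locus LOC_Os01g46410 was listed at 0 in both white light coleoptile libraries and in all 4 first leaf libraries, and stood at 0.638 and 0.732 FPKM in the shaded coleoptile. LOC_Os07g15320, with the same annotation, stood at 0 and 0.0559 FPKM in white light coleoptiles, at 0.336 and 0.332 in shaded ones and at 0 in the first leaf. Both were called higher in the shaded coleoptile when no filter was applied (adjusted p = 0.00546 and 0.0454), at levels where an exact 0 may be a failed estimate.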
